A study of Mus musculus with 29 samples.

Results

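The 10 genes described here are markers and receptors of neutrophils, S100a8, S100a9, Cxcr2, Csf3r, Ly6g, Fpr1, Fpr2, Mpo, Elane and Ngp. They were chosen by name, with earlier results of these data known. Each symbol matched 1 of the 54532 mouse genes in the count table through its Ensembl identifier. They fall into 7 genes that circulating and tissue neutrophils express and 3 genes, Mpo, Elane and Ngp, whose transcripts belong to granule-forming precursors. A mean of at least 3 counts over all mice was needed for testing, and 8 of the 10 reached it, while Mpo and Elane did not.

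Neutrophils arise in the bone marrow, where promyelocytes transcribe the primary granule enzymes myeloperoxidase (Mpo) and neutrophil elastase (Elane), and later precursors transcribe secondary granule proteins such as neutrophilic granule protein (Ngp). These transcripts decline as the cell matures, while those of the chemokine receptor Cxcr2, the granulocyte colony-stimulating factor (G-CSF) receptor Csf3r, the formyl peptide receptors and the calprotectin subunits S100a8 and S100a9 are abundant in mature cells. In colitis, neutrophils enter the colon from the blood, and calprotectin in stool is measured as a sign of bowel inflammation.

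The study sequenced polyadenylated RNA from colon segments of 29 mice in 6 colitis models and 3 untreated control groups, and the question here is how far the neutrophil genes differed between each model and its own control. TRUC mice (n = 4) were untreated Balb/C mice lacking Tbx21 and Rag2, and were compared with Balb/C Rag2-/- mice (n = 3). DSS mice (n = 3) were Balb/C mice given 3% dextran sulfate sodium, a chemical that injures the epithelium, in their water for 5 days and culled at day 10. For this model the study's methods instead name C57BL/6 mice, 5 or 6 days of DSS and a cull at day 7 or 8. DNBS mice (n = 3) were Balb/C mice given 3 mg dinitrobenzene sulfonic acid, a hapten, rectally in ethanol, and the study's methods give a cull 3 days later. IL10 mice (n = 4) were Balb/C mice labelled as given a blocking antibody against IL10. The protocol describes 750 ug of antibody against the IL-10 receptor and culling after 4 weeks, whereas the study's methods name Il10-/- mice. These 3 groups shared the untreated Balb/C wild-type mice (n = 3) as controls, for which the study's methods name another strain, C57BL/6. TCT mice (n = 3) were labelled as C57BL/6 Rag1-/- mice given 500000 naive CD4+ T cells and culled after 6 to 8 weeks. Anti-CD40 mice (n = 3) were labelled as C57BL/6 Rag1-/- mice given 50 ug of an agonist antibody to CD40 and culled after 7 days. Both shared the untreated mice labelled C57BL/6 Rag1-/- (n = 3) as controls. For TCT mice, the study's methods give a cull at 4 to 6 weeks. TRUC, TCT and anti-CD40 mice and 2 of the control groups were thus labelled as lacking T and B cells of their own. Mice carry the numbers of their labels, and for TRUC mice 4 and 5 the columns of counts carry other names.

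Libraries held 10725564 to 14977094 counts (median 12287039), so that 3 counts in a library, taken here as the floor, were worth 0.179 to 0.314 CPM (counts relative to library size, scaled by the trimmed mean of M values, TMM). The labelled genotypes were only in part matched by the counts. Rag2 had 6 to 20 counts in the libraries labelled Rag1-/- control and 48 to 99 in those labelled anti-CD40, near the 15 to 25 counts in Rag2-/- controls and the 57 to 94 in TRUC mice, while wild-type mice had at most 1. TCT mice had 0 Rag2 counts and 20 to 33 Rag1 counts, against 0 to 4 Rag1 counts in their controls. Tbx21 had 26 to 52 counts in TRUC mice and 1 to 7 in their controls, and Il10 had 61 to 111 counts in IL10 mice. Which part of a gene was deleted is not given, so such counts do not check a knockout. The transfer protocol names Rag2-/- recipients. The Rag1-/- and Rag2-/- controls, labelled as different strains, differed in 0.124% of all genes, and the Rag1-/- and wild-type controls in 10.9%. Whether TCT mice and their controls share a strain was not tested. Some TCT and anti-CD40 values, those of S100a8, Ly6g and Ngp, are therefore also given against other controls. Cd3e, a T cell receptor chain, had 61 to 119 counts in TCT mice and at most 1 in their controls. Epcam, a marker of the epithelium, had 14442 to 24583 counts per library. In bulk colon RNA, fewer cells of a type and less RNA per cell cannot be told apart.

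For 4 of the members, the bases just before the annotated gene start are shown as background to the pattern of levels, from the RefSeq promoter table for GRCm38.p6, which held all 10 members. C/EBP and PU.1 are transcription factors of the myeloid lineage. Capitals mark 2 letter patterns searched on both strands, TTNNGCAA (or TTGCNNAA) for C/EBP and GAGGAA (or TTCCTC) for PU.1, which cannot overlap each other as spelled. All are written 5′ to 3′ on the strand of the gene.
S100a8, chr3:90668821-90668977, plus strand: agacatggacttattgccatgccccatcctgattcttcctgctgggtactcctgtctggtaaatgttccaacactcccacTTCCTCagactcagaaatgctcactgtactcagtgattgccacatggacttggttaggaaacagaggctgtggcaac
S100a9, chr3:90695722-90695971, minus strand: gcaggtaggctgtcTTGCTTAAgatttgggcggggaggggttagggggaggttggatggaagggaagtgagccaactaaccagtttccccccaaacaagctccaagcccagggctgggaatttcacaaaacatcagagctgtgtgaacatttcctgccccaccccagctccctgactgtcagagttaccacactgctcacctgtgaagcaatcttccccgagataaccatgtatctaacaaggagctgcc
Cxcr2, chr1:74153744-74153988, plus strand: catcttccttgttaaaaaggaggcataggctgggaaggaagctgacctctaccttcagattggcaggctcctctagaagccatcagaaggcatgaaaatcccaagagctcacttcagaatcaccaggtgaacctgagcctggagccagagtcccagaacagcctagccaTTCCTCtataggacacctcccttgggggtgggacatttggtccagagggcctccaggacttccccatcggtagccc
Ly6g, chr15:75155011-75155239, plus strand: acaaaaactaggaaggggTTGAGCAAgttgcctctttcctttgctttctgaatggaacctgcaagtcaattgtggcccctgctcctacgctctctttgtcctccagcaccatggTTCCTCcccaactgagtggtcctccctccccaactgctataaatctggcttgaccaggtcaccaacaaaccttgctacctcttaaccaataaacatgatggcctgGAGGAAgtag
In the 250 bases before the RefSeq start, 3 of the 10 members held the C/EBP letters and 7 held the PU.1 letters, against 9.55% and 23.1% of 27025 mouse promoters. Ly6g was the 1 member with both, which 2.06% of all promoters held. A second PU.1 match of S100a8 lay past the bases printed. A letter match is a description of the sequence and was not tied to binding.

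The members S100a8, S100a9, Cxcr2, Csf3r, Fpr1 and Fpr2, had at most 15 counts in any control colon and were higher in every mouse of every colitis model than in any mouse of its own control group. Among all 18616 genes tested, 28.8% were separated in this way in TRUC, 25.9% in DSS, 15.6% in DNBS, 27.6% in IL10, 21.4% in TCT and 19.2% in anti-CD40 mice. Ly6g behaved differently, with 1759 to 4404 counts in each control mouse. By the quasi-likelihood test of edgeR, its p-values adjusted after Benjamini and Hochberg across every gene tested, 7 of the 8 tested members rose in TRUC mice, where 22.4% of all genes did. All 8 rose in DSS mice (17.7% of all genes), 4 in DNBS mice (3.95%), 7 in IL10 mice (27.2%), 6 in TCT mice (16.1%) and 7 in anti-CD40 mice (10.9%), and no member fell. Counting mature genes alone, 7 of 7 rose in TRUC, DSS and anti-CD40 mice, 6 of 7 in IL10 and TCT mice and 4 of 7 in DNBS mice. TRUC mice had a median log2 fold change of these genes of 5.73, DSS mice of 8.29, DNBS mice of 4.01, IL10 mice of 5.97, TCT mice of 5.99 and anti-CD40 mice of 4.24, or 5.73, 7.64, 4.01, 5.81, 5.48 and 3.70 with genes near 0 in the controls set at their bound or count ratio. The median over all genes lay between -0.03 and 0.02. The p-values measure only the spread between these mice.

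**Figure D1:**
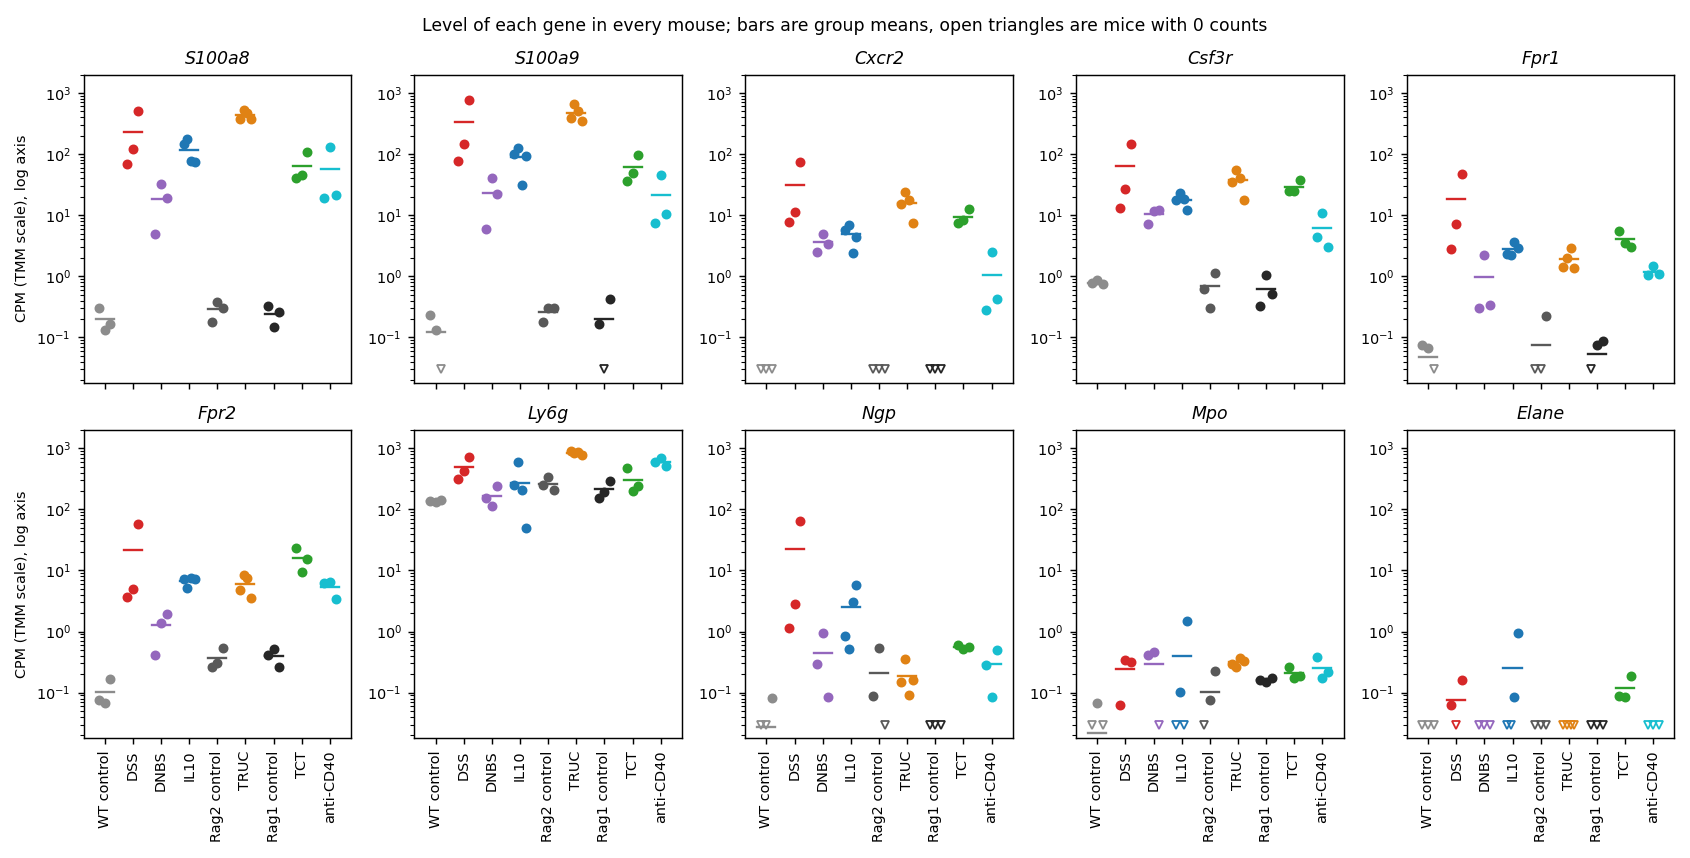
CPM (log axis) of each of the 10 members in every mouse, by group, with bars at group means and open triangles for mice with 0 counts. Cxcr2 has 0 counts in all 9 control mice, Ly6g is well above the other members in those mice, and Mpo and Elane lie at the bottom of the scale in every group.

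S100a8 and S100a9 encode the subunits of calprotectin, a calcium- and zinc-binding protein that fills the neutrophil cytosol and is also made by monocytes. They lie close together on chromosome 3 (GRCm38, GENCODE M21), S100a8 at chr3:90668978-90670035 on the plus strand and S100a9 at chr3:90692632-90695721 on the minus strand. S100a8 reached 379, 518, 467 and 381 CPM in the TRUC mice against 2 to 5 counts in their controls. In DSS mice it was 67.7, 122 and 504 CPM, in DNBS mice 4.90, 32.3 and 18.8 CPM, and in IL10 mice 144, 176, 77.7 and 74.2 CPM, against 2 to 4 counts in wild-type mice. TCT mice had 40.5, 45.6 and 107 CPM and anti-CD40 mice 19.2, 130 and 21.0 CPM, against 2 to 4 counts in their controls. The TRUC mice lay close together, whereas DSS mouse 8, DNBS mouse 14 and anti-CD40 mouse 7 stood above the rest of their groups. S100a8 rose by 10.50 ± 1.11 (SE) on the log2 scale in TRUC (edgeR adjusted p = 2.7e-07), 10.11 ± 1.14 in DSS (2.03e-06), 9.14 ± 1.12 in IL10 (1.34e-06), 8.00 ± 1.11 in TCT (6.71e-06), 7.83 ± 1.11 in anti-CD40 (5.11e-05) and 6.47 ± 1.15 in DNBS mice (0.00265). The change was 8.83 without DSS mouse 8, 5.81 without DNBS mouse 14 and 6.33 without anti-CD40 mouse 7, and passed the test in each case.

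S100a9 rose in all 6 models as well. Its mean level was 474 ± 134 CPM (SD, n = 4) in TRUC mice and 332 ± 382 CPM (SD, n = 3) in DSS mice, and its controls held 0 to 5 counts each. The log2 fold change ran from 6.74 ± 1.24 in anti-CD40 mice (edgeR adjusted p = 6.02e-04) to 11.28 ± 1.28 in DSS mice (2.08e-06). The DSS change was 9.72 without mouse 8 and 11.96 without wild-type mouse 1, and the anti-CD40 change was 5.51 without mouse 7 and 7.92 without Rag1-/- control 4.

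Per kilobase of exon, S100a8 stood below S100a9 in every mouse of the TRUC, DSS, DNBS and TCT groups. The ratio of S100a8 to S100a9 was 0.710 ± 0.0930 (SD, n = 4) in TRUC, 0.590 ± 0.0864 (n = 3) in DSS, 0.619 ± 0.0231 (n = 3) in DNBS and 0.793 ± 0.0830 (n = 3) in TCT mice. In anti-CD40 mice it was 1.97, 2.15 and 1.49, so that S100a8 was the higher of the pair. IL10 mice were split, at 1.07, 1.04, 1.88 and 0.609. Every anti-CD40 mouse lay above every mouse of the other models except IL10 mouse 3. This difference was seen in the data and was not tested.

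Cxcr2 is the receptor through which neutrophils follow the chemokines Cxcl1, Cxcl2, Cxcl3 and Cxcl5. No read was counted for it in any of the 9 control mice. Counts were 204, 265, 192 and 90 in TRUC mice, 124, 162 and 933 in DSS mice and 42, 64 and 40 in DNBS mice. They were 67, 66, 28 and 42 in IL10 mice, 84, 96 and 136 in TCT mice and 3, 29 and 6 in anti-CD40 mice. All colitis mice thus had Cxcr2 counts, but 1 anti-CD40 mouse was no higher than the floor. Against a floor of 3 counts in each control library, Cxcr2 was at least 139-fold higher in DSS, 66.0-fold in TRUC, 39.0-fold in TCT, 21.5-fold in IL10, 16.1-fold in DNBS and 4.43-fold in anti-CD40 mice. The bound was 42.0-fold in DSS mice without mouse 8, which held 933 of the 1219 counts, and 1.48-fold in anti-CD40 mice without mouse 7, which held 29 of the 38. Cxcr2 passed the edgeR test in all 6 models, with the highest adjusted p of 0.0372 in anti-CD40 mice and 0.0112 in DNBS mice. The anti-CD40 call was lost without mouse 7 (0.230) and without Rag1-/- control 2 (0.0786), 3 (0.102) or 4 (0.0814), and the DNBS call without wild-type mouse 1 (0.0597) or 2 (0.0552). For genes at 0 in their controls the fitted size is set in part by the prior count of the model, so it is not given.

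Csf3r, the receptor for G-CSF, which drives neutrophil production and survival, had 4 to 15 counts per control mouse. It was 34.7, 55.1, 40.7 and 17.9 CPM in TRUC mice, 13.2, 26.5 and 148 CPM in DSS mice and 7.11, 11.5 and 12.3 CPM in DNBS mice. It was 17.96, 23.4, 18.3 and 12.2 CPM in IL10 mice, 24.5, 24.4 and 37.3 CPM in TCT mice and 4.42, 10.98 and 3.01 CPM in anti-CD40 mice. The controls lay between 0.306 and 1.13 CPM, below the lowest colitis mouse. Log2 fold changes were 6.28 ± 0.78 in DSS (edgeR adjusted p = 4.91e-06), 5.73 ± 0.77 in TRUC (5.63e-06), 5.48 ± 0.79 in TCT (1.12e-05), 4.49 ± 0.74 in IL10 (3.52e-05), 3.68 ± 0.76 in DNBS (0.00791) and 3.24 ± 0.81 in anti-CD40 mice (0.00657). The DSS change was 4.63 without mouse 8. The anti-CD40 call was lost without mouse 7 (2.52, adjusted p = 0.0667) and the DNBS call without wild-type mouse 1 (3.66, 0.0504). Group means of Cxcr2 and of Csf3r took the same order, DSS, TRUC, TCT, IL10, DNBS and anti-CD40, and in that order the mice of TCT and IL10, as neighbours, did not overlap in either gene. For Cxcr2, the lowest DNBS mouse (2.51 CPM) was also just above the highest anti-CD40 mouse (2.49 CPM). DSS came first through mouse 8. Without it, the DSS mean was 9.44 CPM for Cxcr2 and 19.8 CPM for Csf3r, below the TRUC means of 15.9 and 37.1 CPM and, for Csf3r, below the TCT mean of 28.7 CPM.

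Calprotectin and the receptor levels were not in one proportion across the models. Per kilobase of exon, S100a8 was 69.0 ± 28.1 (SD, n = 4) times Csf3r in TRUC mice and 40.1 ± 19.9 (n = 3) times in anti-CD40 mice. It was 33.6 ± 8.83 (n = 4) times Csf3r in IL10 mice and 22.8 ± 4.60 (n = 3) times in DSS mice, within or near the anti-CD40 range of 22.6 to 61.7. It was 11.1 ± 3.36 (n = 3) times in TCT mice and 8.73 ± 5.55 (n = 3) times in DNBS mice. The lowest TRUC mouse, at 48.9, was above the highest TCT mouse, at 14.9, and the highest DNBS mouse, at 14.6. The differences between these ratios were not tested.

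**Figure D2:**
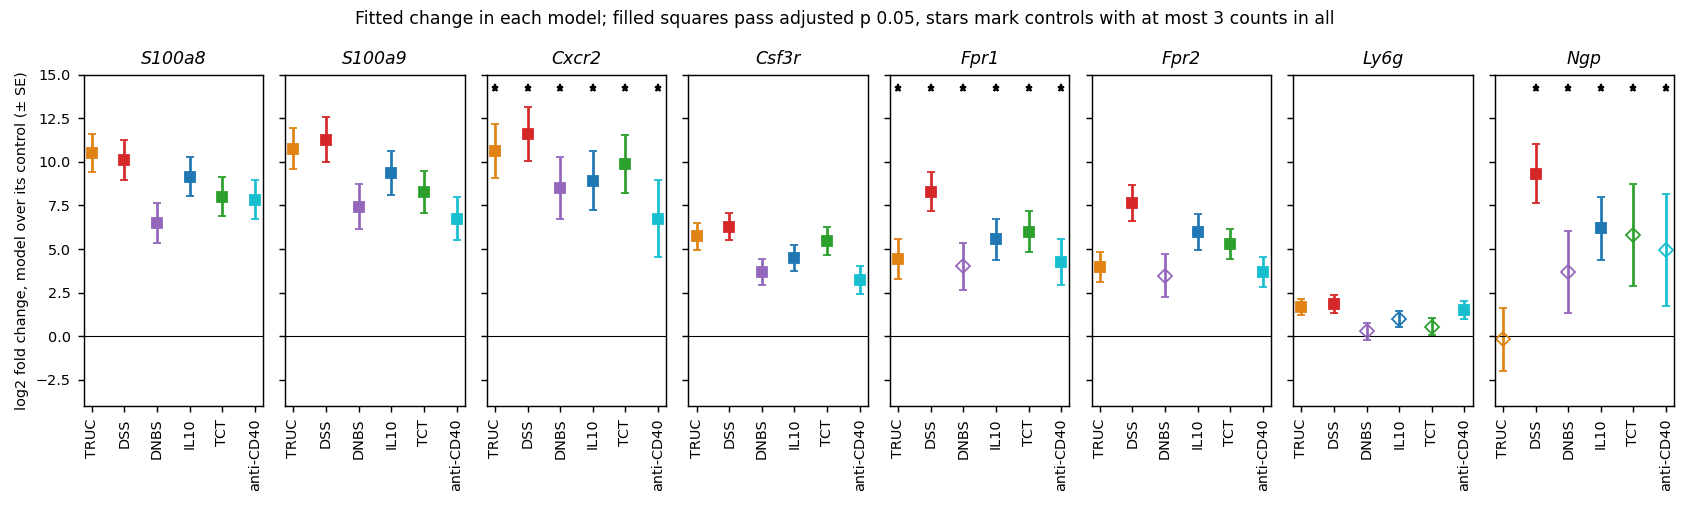
Log2 fold change (± SE, the change over the square root of its F statistic) of the 8 tested members in each colitis model against its own control group. Filled squares passed the edgeR test at an adjusted p of 0.05, and stars mark genes with 3 or fewer counts in all their control mice together, whose plotted size depends on the prior count. Ly6g shows the smallest changes of the mature genes, and Ngp passes in DSS and IL10 mice.

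Fpr1 and Fpr2 are receptors for formylated peptides that bacteria and mitochondria release, and Fpr2 also binds annexin A1. Both lie on chromosome 17, Fpr1 at chr17:17876471-17883940 on the minus strand and Fpr2 at chr17:17887824-17893952 on the plus strand. Fpr1 had 0 to 3 counts in each control mouse, with totals of 2, 2 and 3 counts in the wild-type, Rag1-/- and Rag2-/- groups. It had 45, 103 and 578 counts in DSS mice, 63, 41 and 33 in TCT mice and 27, 21, 43 and 28 in IL10 mice. It had 19, 22, 32 and 17 counts in TRUC mice, 11, 17 and 15 in anti-CD40 mice and 5, 29 and 4 in DNBS mice. The ratio to the controls, with a 95% counting interval, was 340 (93.9 to 2815) in DSS, 75.7 (20.6 to 632) in TCT, 56.2 (15.2 to 469) in IL10, 23.5 (7.79 to 116) in TRUC, 22.3 (5.80 to 190) in anti-CD40 and 18.5 (4.79 to 159) in DNBS mice. These intervals cover counting error only. Without DSS mouse 8, the DSS ratio was 97.8 (26.6 to 815). Fpr1 passed the edgeR test in 5 models and missed it in DNBS mice (adjusted p = 0.0734). The anti-CD40 call (adjusted p = 0.0248) was lost without mouse 7 (0.0789) and without Rag1-/- control 2 (0.0753), 3 (0.0752) or 4 (0.0573).

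Fpr2 was 3.71, 5.06 and 57.2 CPM in DSS mice, 23.6, 9.49 and 15.6 CPM in TCT mice and 7.17, 5.20, 7.64 and 7.32 CPM in IL10 mice, and it had 1 to 7 counts per control mouse. TRUC mice had 4.79, 8.27, 7.51 and 3.50 CPM, anti-CD40 mice 6.20, 6.43 and 3.37 CPM and DNBS mice 0.418, 1.40 and 1.96 CPM. It rose in 5 models, by 7.64 ± 1.02 on the log2 scale in DSS mice (edgeR adjusted p = 1.09e-05; 5.33 without mouse 8), 5.97 ± 1.03 in IL10 mice (5.48e-05), 5.31 ± 0.86 in TCT mice (4.5e-05), 3.98 ± 0.85 in TRUC mice (6.36e-04) and 3.70 ± 0.87 in anti-CD40 mice (0.00423). In DNBS mice its log2 fold change was 3.48 ± 1.21 and missed the test (adjusted p = 0.0808). Of its exonic 50-base windows, 31.5% occur also in other genes, most often in the predicted gene Gm5966, so its counts are less certain than those of Fpr1. The same holds in part for Csf3r (10.7%), Mpo (9.46%, shared with an antisense gene) and Cxcr2 (6.68%), and for 0.448% or less of the windows of the other members. Per kilobase of exon, Fpr2 was 1.11 ± 0.330 (SD, n = 3) times Fpr1 in DSS mice, 2.58 ± 0.463 (n = 4) times in IL10 mice, 3.25 ± 0.826 (n = 4) times in TRUC mice, 4.12 ± 1.24 (n = 3) times in TCT mice and 4.61 ± 1.47 (n = 3) times in anti-CD40 mice. In the DNBS mice, with 4 to 29 Fpr1 counts, the ratio ran from 0.634 to 5.87. The highest DSS mouse, at 1.34, lay below the lowest mouse of the IL10, TRUC, TCT and anti-CD40 groups, and this difference was not tested.

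**Figure D3:**
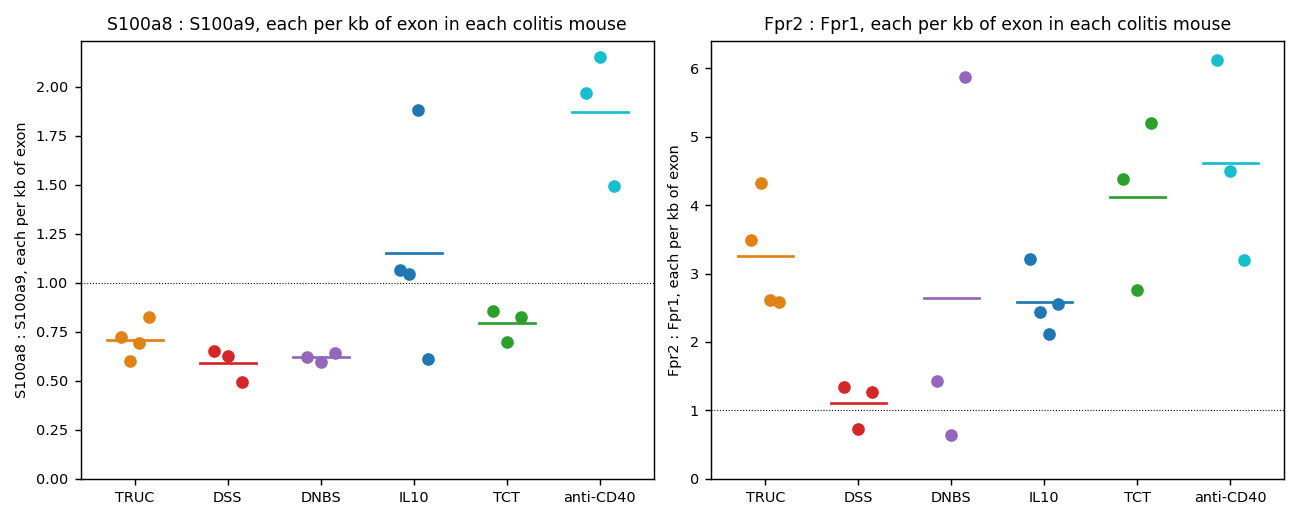
Ratio of S100a8 to S100a9 (first panel) and of Fpr2 to Fpr1 (second panel), each per kilobase of exon, in every colitis mouse. The anti-CD40 mice lie at 1.49 to 2.15 for the S100 pair, and the DSS mice at 0.734 to 1.34 for the formyl peptide receptors.

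Ly6g encodes a surface protein that antibodies use to mark mouse neutrophils. It lies at chr15:75155240-75159126 on the plus strand. In wild-type colon it was 134, 130 and 144 CPM, in Rag1-/- controls 151, 193 and 292 CPM and in Rag2-/- controls 246, 337 and 209 CPM. Per kilobase of exon, Ly6g was 575 to 4218 times Csf3r in the control mice. Cxcr2 had 0 counts in the same mice, and which cells held the Ly6g RNA was not tested. TRUC mice had 885, 844, 876 and 780 CPM, DSS mice 318, 425 and 731 CPM and anti-CD40 mice 600, 696 and 520 CPM. All mice of these 3 groups were above their controls. The other models overlapped their controls, at 248, 586, 210 and 49.7 CPM in IL10 mice, 477, 202 and 242 CPM in TCT mice and 151, 114 and 237 CPM in DNBS mice. IL10 mouse 4 had the lowest Ly6g of all 29 mice, below every control. Ly6g rose by 1.85 ± 0.50 on the log2 scale in DSS mice (edgeR adjusted p = 0.00652), 1.68 ± 0.48 in TRUC mice (0.00645) and 1.52 ± 0.50 in anti-CD40 mice (0.0319). The log2 fold changes in IL10 (1.01 ± 0.47, adjusted p = 0.0741), TCT (0.54 ± 0.49, 0.440) and DNBS mice (0.30 ± 0.49, 0.746) missed the test. Without IL10 mouse 4, the IL10 change was 1.35 and passed (adjusted p = 0.00453), and without DSS mouse 8, the DSS change was 1.45 and did not (0.0515). The anti-CD40 call was lost without mouse 6 (1.52, 0.0631) or 7 (1.40, 0.107) and without Rag1-/- control 2 (1.32, 0.108) or 3 (1.45, 0.105).

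Ly6g stood apart from the other mature genes also across mice. Over all 29 mice, the 15 pairs among S100a8, S100a9, Cxcr2, Csf3r, Fpr1 and Fpr2 had correlations of log2 CPM between 0.854 and 0.990, and between 0.539 and 0.912 after group means were removed. Correlations of Ly6g with the same 6 genes were 0.397 to 0.565, and 0.097 to 0.362 within groups. The mice share groups and their libraries share depth, so these values are a description. In the colitis mice, Ly6g per kilobase was 243 to 662 times Csf3r in the anti-CD40 group, 58.7 to 167 times in the TRUC group and 15.6 to 96.0 times in the other models, so that every anti-CD40 mouse was above all other colitis mice, which was not tested.

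**Figure D4:**
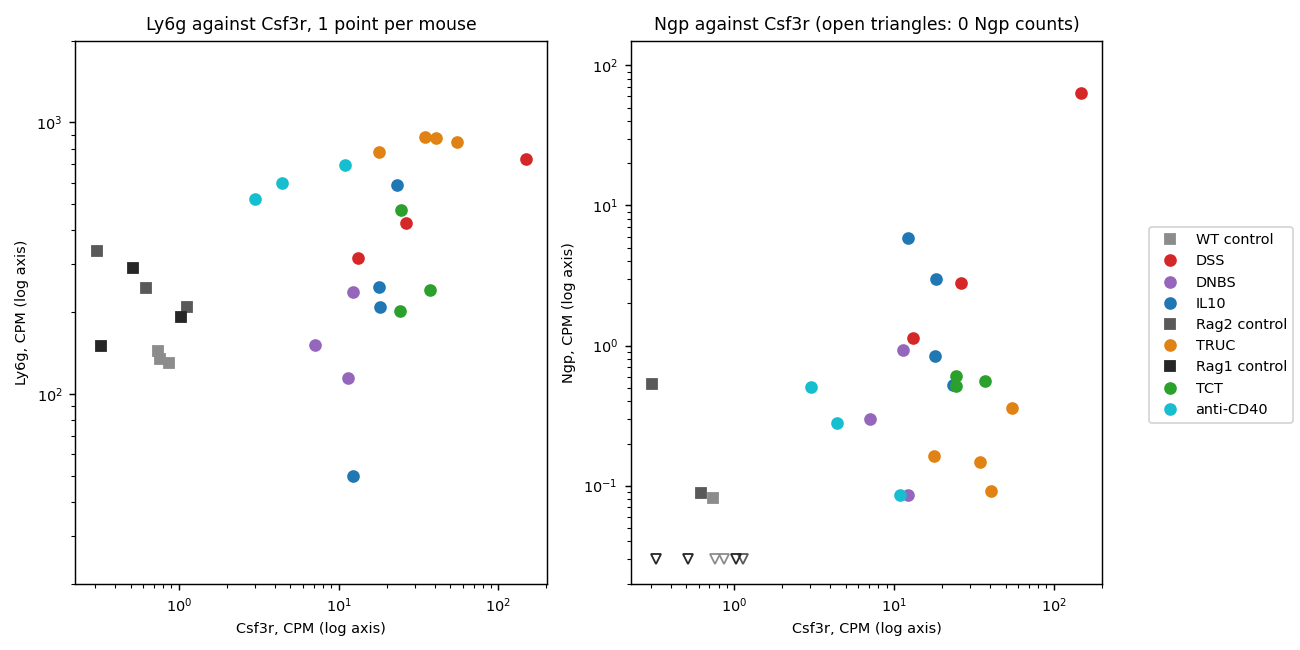
Ly6g (first panel) and Ngp (second panel) against Csf3r in every mouse, in CPM on log axes, coloured by group. Control mice sit at the left with Ly6g between 130 and 337 CPM and Csf3r at or below 1.13 CPM, the anti-CD40 mice have high Ly6g at low Csf3r, and DSS mouse 8 has the highest Ngp.

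The precursor genes were scarce in nearly every colon. Mpo, the haem enzyme that makes hypochlorous acid, had at most 7 counts in any mouse except IL10 mouse 4, which had 14, and the controls had 0 to 3. Elane, a serine protease of primary granules, had 17 counts in all, of which 9 were in IL10 mouse 4, and 0 in every control, TRUC, DNBS and anti-CD40 mouse. Neither passed the filter on low counts. With no filter on counts, Mpo passed the edgeR test in IL10 mice (adjusted p = 0.044), where 3 of the 4 mice had 0 or 1 counts.

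Ngp, which encodes a cathelicidin-related protein of secondary granules, had 18, 41 and 796 counts in DSS mice and 10, 5, 35 and 56 in IL10 mice, against 0, 0 and 1 in wild-type controls. It had 2, 4, 1 and 2 counts in TRUC mice against 1, 7 and 0 in Rag2-/- controls, so that the groups overlapped. DNBS mice had 5, 12 and 1 counts, TCT mice 7, 6 and 6 and anti-CD40 mice 3, 1 and 7, and the Rag1-/- controls had 0. The ratio to the controls was 802 (95% counting interval 144 to 31690) in DSS mice, 100.1 (17.6 to 3991) in IL10 mice and 17.6 (2.77 to 731) in DNBS mice, and over a floor of 3 counts per control library it was at least 2.33-fold higher in TCT mice and at least 1.20-fold higher in anti-CD40 mice. Ngp rose in DSS (edgeR adjusted p = 2.39e-04) and IL10 mice (0.00684) and missed the test in DNBS (0.341), TCT (0.139), anti-CD40 (0.286) and TRUC mice (0.956). Without DSS mouse 8, the DSS ratio was 77.98 (13.5 to 3131), and Ngp still passed (adjusted p = 0.00298).

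Summed over Mpo, Elane and Ngp, TRUC mice had 5 to 7 counts, while the same mice had 4678 to 5818 counts of S100a8. DSS mice had 20, 46 and 802 counts of the precursor genes and IL10 mice 10, 6, 36 and 79. TCT mice had 9 to 11, anti-CD40 mice 3 to 10, DNBS mice 1 to 18 and controls 0 to 8. The high DSS and IL10 sums came from Ngp in DSS mouse 8 and from Ngp, Mpo and Elane together in IL10 mouse 4. Per kilobase of exon, Ngp was 1.27 times Csf3r in DSS mouse 8, 1.41 times in IL10 mouse 4 and at most 0.485 times in every other colitis mouse except anti-CD40 mouse 8, at 0.492. In TRUC mice it was 0.00665 to 0.0268 times Csf3r.

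The direct comparison of models that share a control asked which of them differed in these genes. All 8 members were higher in DSS than in DNBS mice, where 22.6% of all genes differed. The log2 difference was 3.64 ± 0.73 for S100a8, 3.10 for Cxcr2, 2.61 for Csf3r, 4.29 for Fpr1 and 1.55 for Ly6g (adjusted p = 0.0273). Without DSS mouse 8, 4 members still differed, S100a8 by 2.36, S100a9 by 2.30, Fpr1 by 2.37 and Fpr2 by 1.84. DSS mice were higher than IL10 mice in 6 members (49.8% of all genes differed), among them Cxcr2 by 2.69 and Ngp by 3.14. Without DSS mouse 8, 0 members differed by the edgeR test, with 0.97 for Cxcr2 and -0.37 for Ngp. DNBS mice were lower than IL10 mice in 3 of the 8 members, near the share of all genes that differed (33.9%). The differences were -2.67 for S100a8, -1.94 for S100a9 and -2.48 for Fpr2. Without DNBS mouse 11, S100a9 (-1.47, adjusted p = 0.173) and Fpr2 (-2.01, 0.0748) no longer passed, and S100a9 was also lost without DNBS mouse 16 (-1.91, 0.0761) or IL10 mouse 1 (-1.86, 0.0584), 2 (-1.71, 0.0768) or 4 (-1.92, 0.0560). TCT mice were higher than anti-CD40 mice in 2 of the 8 members, also near the share of all genes that differed (18.4%). The 2 were Cxcr2, by 3.13 ± 0.84 (edgeR adjusted p = 0.0133), and Csf3r, by 2.23 ± 0.61 (0.0120). Both missed the test without anti-CD40 mouse 6 (0.0619 and 0.0577) or 8 (0.0601 and 0.0625). For fits without a mouse, the share of all genes that differed between models was not counted.

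Models with different controls were set against each other by their changes. In TRUC against DSS mice, 1 of the 8 members differed, no more than the share of all genes that did (17.4%). It was Ngp, with a fitted log2 difference of -9.49 ± 3.01 (edgeR adjusted p = 0.0331) whose size depends on the few Ngp counts of the controls. The call was lost without Rag2-/- control 2 (adjusted p = 0.472), TRUC mouse 4 (0.0502) or wild-type mouse 1 (0.0577), 2 (0.0589) or 4 (0.0514). In the other 10 pairs, 0 members passed the edgeR test, and 3 of 80 tests had an unadjusted p under 0.05. Cxcr2, at 0 counts in every control, could not pass there or in TRUC against DSS mice. Its SE, the size of the change over the square root of a very small F statistic, ran from 3179 (TRUC against TCT) to 27658 (DSS against anti-CD40). Ngp had an SE of 39.7 in DSS against TCT and 67.6 in DSS against anti-CD40 mice. Such tests do not show that the changes were equal. Of all genes, 5.13% differed between TRUC and DNBS, 6.99% between TRUC and IL10, 9.22% between TRUC and TCT and 1.1% between TRUC and anti-CD40 mice. The share was 7.83% for DSS and TCT, 13.3% for DSS and anti-CD40, 8.32% for DNBS and TCT, 1.38% for DNBS and anti-CD40, 19.9% for IL10 and TCT and 3.15% for IL10 and anti-CD40 mice. Between control groups, 0 of the 8 members differed in the 3 comparisons, with 0 at an unadjusted p under 0.05, where 0.124% (Rag1-/- against Rag2-/-), 8.11% (Rag2-/- against wild type) and 10.9% (Rag1-/- against wild type) of all genes did. These tests could show little. Cxcr2 had 0 counts in all control mice, and S100a8, S100a9, Fpr1, Fpr2 and Ngp had at most 7 in each. Ly6g, with the most counts, was higher in every Rag2-/- control than in any wild-type mouse (log2 difference 0.96 ± 0.49, edgeR adjusted p = 0.289). Against other controls, the libraries labelled TCT kept S100a8 log2 fold changes of 8.27 ± 1.13 (wild type, where 16.9% of all genes rose) and 7.73 ± 1.08 (Rag2-/-, 17.4%), and the libraries labelled anti-CD40 kept 7.55 ± 1.08 (Rag2-/-, 12.4%). Of the 7 mature genes, 6 rose in each of these comparisons, all but Ly6g. In TCT mice, Ly6g changed by 1.17 ± 0.50 against wild-type mice (edgeR adjusted p = 0.0741), with every TCT mouse above them. Against Rag2-/- controls its TCT change was 0.22 ± 0.49 (0.776). Against Rag2-/- controls, the anti-CD40 change of Ly6g was 1.20 ± 0.49 and missed the test (adjusted p = 0.0791). Ngp overlapped those controls, with 1.36 ± 1.62 in TCT (0.559) and 0.48 ± 1.77 in anti-CD40 mice (0.875).

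Of a list of 7 ligands and growth factors for these receptors (Cxcl1, Cxcl2, Cxcl3, Cxcl5, Ppbp, Csf3 and Anxa1), 5 rose in TRUC, DNBS, IL10 and TCT mice, 6 in DSS mice and 4 in anti-CD40 mice. Of all genes, 22.4% rose in TRUC, 17.7% in DSS, 3.95% in DNBS, 27.2% in IL10, 16.1% in TCT and 10.9% in anti-CD40 mice. These shares apply to the lists below as well. The list had a median log2 fold change between 3.85 (DNBS) and 7.49 (TRUC), or 3.51 (anti-CD40) and 7.44 (TRUC) with genes near 0 in the controls at their bound. Cxcl1, Cxcl2, Cxcl3 and Cxcl5, which recruit neutrophils through Cxcr2, rose in all 6 models. Cxcl1 changed by 7.49 ± 0.83 on the log2 scale in TRUC mice, 7.20 ± 0.91 in DSS mice and 3.85 ± 1.02 in DNBS mice. Csf3, which encodes G-CSF, rose in DSS mice (edgeR adjusted p = 3.1e-04), where 468 of the 501 counts were in mouse 8. Ppbp, a platelet chemokine, rose in DNBS mice (4.75 ± 0.94, adjusted p = 0.00590). Neither passed the test in another model. Their change differed between the 6 models by the edgeR test of equal change (adjusted p = 3.06e-04 for Csf3 and 1.15e-04 for Ppbp).

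Of 15 other genes of mature neutrophils, 14 rose in TRUC, 15 in DSS, 7 in DNBS, 13 in IL10, 10 in TCT and 5 in anti-CD40 mice. Their median log2 fold change was 4.06, 7.03, 3.63, 4.35, 3.99 and 1.91 in that order, or 3.80, 5.80, 3.18, 4.27, 3.17 and 1.41 with genes near 0 in the controls at their bound. In DSS mice, Clec4e, Stfa2l1, Mmp8 and Mrgpra2b had the largest fitted changes, each over 2 or fewer counts in all wild-type mice together. The next examples, Retnlg and Cd177, were chosen after their values were seen. Retnlg, a resistin-like protein of neutrophils, rose by 8.13 ± 1.09 in DSS mice and 4.06 ± 1.02 in TRUC mice, and its log2 fold change of 2.72 ± 1.33 in anti-CD40 mice missed the test (edgeR adjusted p = 0.15). Cd177, a surface protein of neutrophils that also had 2058 to 3063 counts per control group, rose in all 6 models, most in IL10 mice (4.27 ± 0.34). Its levels did not follow those of Cxcr2. DSS mouse 8, with the highest Cxcr2 (74.6 CPM), had the lowest Cd177 of the DSS mice (85.6 CPM). The IL10 mean was 977 CPM for Cd177 and 4.83 CPM for Cxcr2. Which cells held the Cd177 RNA was not tested. Padi4, the enzyme that citrullinates histones, fell by 2.27 on the log2 scale in TCT mice (adjusted p = 0.0058) and rose in TRUC and DSS mice.

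Of 10 further granule and precursor genes, 7 were tested, and 2 rose in TRUC and DNBS, 5 in DSS, 6 in IL10, 3 in TCT and 4 in anti-CD40 mice, with median log2 fold changes of 1.24 (TRUC), 2.27 (DNBS), 4.28 (DSS), 2.97 (IL10), 3.05 (TCT) and 3.75 (anti-CD40), or 1.24, 2.38, 4.37, 3.09, 3.47 and 3.77 with genes near 0 in the controls at their count ratio. Ltf (lactoferrin), which epithelial and gland cells also make, rose in all 6 models, and Lcn2 (lipocalin), which colon epithelium makes as well, in 5. Prtn3, the primary granule protease proteinase 3, rose in DSS mice (66 counts in all, against 3 in the wild-type mice) and IL10 mice (27 counts). Camp (cathelicidin), named after its values were seen, rose in IL10 mice (2.95 ± 0.91), with 15 and 25 counts in mice 3 and 4 but 2 and 1 in mice 1 and 2, as in wild-type mice (1 to 2). Gfi1, a transcription factor of granulocyte precursors and of some epithelial cells, fell by 1.54 on the log2 scale in TRUC mice. Ctsg, Ms4a3 and Fcnb had at most 9 counts in any whole group.

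Of 9 receptors from the same families, 3 had enough counts to test, and 2 rose in TRUC, DSS and TCT mice, 1 in IL10 and anti-CD40 mice and 0 in DNBS mice, with 0 of the 3 at an unadjusted p under 0.05 there. The median log2 fold change lay between 0.03 (anti-CD40) and 1.23 (TRUC). Tlr4, a receptor for calprotectin, rose in 5 models, by 1.42 ± 0.20 in anti-CD40 mice and 1.23 ± 0.18 in TRUC mice. Cxcr1, the other receptor for Cxcr2-type ligands, had 0 counts in all control mice and at most 25 in any whole group, and Fpr3, whose exons overlap those of Fpr2, was counted 0 times in all mice. Of 5 tested S100 and Ly6 genes, 4 rose in TRUC, IL10 and TCT, 3 in DSS and anti-CD40 and 1 in DNBS mice, with median log2 fold changes from 0.23 (DNBS) to 2.06 (TRUC). S100a6 fell by 0.52 on the log2 scale in anti-CD40 mice (adjusted p = 0.0136). S100a11 was the 1 gene of the list that rose in all 6 models, by 0.82 ± 0.20 to 2.06 ± 0.20.

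Some markers of other cells also differed between the models and their controls. In TRUC, DSS, IL10 and TCT mice, lists with 1 gene higher were near or below the all-gene share. That share was 22.4%, 17.7%, 27.2% and 16.1% in that order. Of 7 monocyte and macrophage markers, 7 rose in TRUC and TCT, 6 in DSS, 3 in IL10, 2 in anti-CD40 and 1 in DNBS mice, while Mrc1, a receptor of resident macrophages, fell by 0.85 on the log2 scale in IL10 mice (edgeR adjusted p = 0.0144). Their summed level was 337 to 440 CPM in TRUC mice against 140 to 197 in their controls, and 636 to 1131 CPM in DSS, 381 to 576 in IL10 and 334 to 430 in DNBS mice against 235 to 298 in wild-type mice. It was 565 to 751 CPM in TCT and 199 to 244 in anti-CD40 mice against 113 to 162 in their controls. Of 5 erythroid markers, 3 rose in DSS mice, where their sum was 45.9 to 136 CPM against 23.0 to 27.4, and 3 (Hba-a1, Hbb-bs and Hbb-bt) fell in anti-CD40 mice, where it was 0.257 to 12.3 CPM against 25.4 to 43.3. Of 4 tested eosinophil markers, 2 rose in DSS, IL10 and TCT mice and 1 in TRUC and anti-CD40 mice, with a sum of 7.45 to 61.2 CPM in DSS and 7.74 to 13.2 CPM in IL10 mice against 1.60 to 2.46 CPM. Of 6 tested squamous epithelium markers, 4 rose in DNBS mice (25.2 to 420 CPM against 5.74 to 7.06), 3 in TRUC mice (32.4 to 62.6 CPM against 5.75 to 10.9), and 1 each in DSS and IL10 mice. Of 5 lymphocyte markers, 3 rose in DSS, 2 in IL10 and TCT and 1 in TRUC mice, and of 5 tested mast cell markers, 3 rose in DSS and TCT, 2 in TRUC and anti-CD40 and 1 in DNBS and IL10 mice. Of 6 colon epithelium markers, 5 rose in IL10, 3 in TRUC, 2 in anti-CD40 and 1 in DSS and TCT mice, while Krt8 fell in DSS mice and Cdx2 in TCT mice. Of 4 smooth muscle genes, Myh11, Des and Cnn1 fell in IL10 mice and Myh11 in TRUC mice, where 26.1% and 23.4% of all genes fell. The part of these cells, or of blood in the tissue, in the members' changes was not tested.

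The genes whose log2 CPM followed S100a8 most closely over the 29 mice were S100a9 (r = 0.990), Cxcl3 (0.973), Cxcl1 (0.968), Dhrs9 (0.966) and Cxcl2 (0.963), with correlations of 0.912, 0.711, 0.715, 0.531 and 0.823 after group means were removed. Those nearest to Csf3r were Slfn1 (0.982), Cxcr2 (0.981), Cd300lf (0.971), Cxcl2 (0.967) and Il1b (0.962), with 0.874, 0.831, 0.806, 0.836 and 0.770 within groups. Ngp was followed most closely by Ccl4 (0.900), Smim3 (0.877) and Rap2b (0.873), and Ly6g, a gene added to this search after its values were seen, by Fndc3a (0.867), Rdh16 (0.857) and Capn13 (0.855). Cxcl2 was thus among the 5 nearest genes of both S100a8 and Csf3r, and none of the other members was among the 5 nearest genes of Ly6g.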

How the data were processed

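The authors deposited 1 table of raw counts, reads per gene and library, for 29 mouse colon libraries of polyadenylated RNA. The submitters' processing notes name Trimmomatic, HISAT2, HTSeq and the build GRCm38, and versions and strand setting are not given in the sources used here. Samples were grouped by their labels. The 10 members and the gene lists were chosen with earlier results of these data known.

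Genes with a mean of at least 3 counts were kept (18616), scaled by TMM and fitted in 1 model of all 9 groups with edgeR 4.0.16 (quasi-likelihood F test, R 4.3.3), with Benjamini-Hochberg adjustment and a threshold of 0.05. CPM are on the TMM scale. Exon lengths came from GENCODE M21. Of 33 pairs of mice within groups, 0 had identical counts, and the lowest chi-square per degree of freedom was 3.65. The fit, tested on simulated data, recovered 80% (TRUC) and 81.5% (DSS) of 200 genes changed 4-fold among 18616. Named genes were all members, from each other list at most the 4 with the largest fitted change in a comparison, and the 5 nearest by correlation to S100a8, Csf3r and Ngp. DESeq2 1.42.0, other filters and scalings, other controls and leaving out each mouse were alternatives.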

Additional observations from a re-analysis of the deposited data

Results flagged for a closer look

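Among the members in groups of 4 mice, 19 sets of values were screened for a mouse far from the rest. For normally distributed values, chance gives about 1 such set in 20. Both that stood out had 0 or 1 counts in the other mice, where that rate does not hold, and belonged to IL10 mouse 4. Its Mpo level was 1.46 CPM, with a gap to the next mouse of 0.929 of the range of the group, and its Elane level was 0.941 CPM, with a gap of 0.909.

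The 8 tested members each differed in their change between the 6 models, by an edgeR quasi-likelihood F test of equal change, which 60.5% of all genes passed as well. The adjusted p was 0.00551 for S100a8, 0.00168 for S100a9, 0.00133 for Cxcr2, 9.23e-04 for Csf3r, 0.049 for Ly6g, 2.70e-04 for Fpr1, 5.19e-04 for Fpr2 and 0.00116 for Ngp. DSS, DNBS and IL10 mice shared 1 control group, and TCT and anti-CD40 mice shared another. What these differences stem from was not tested.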

How the results depend on the processing

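Leaving out 1 mouse at a time kept the direction and the side of the threshold in 281 of 304 results, and the other alternatives did so in 348 of 355. Without 1 mouse, the number of members that rose ran from 7 to 7 in TRUC, 7 to 8 in DSS, 2 to 6 in DNBS, 7 to 8 in IL10, 6 to 6 in TCT and 3 to 7 in anti-CD40 mice. The lowest values came without wild-type mouse 1 (2 in DNBS) and without anti-CD40 mouse 7 (3), with 3 in DNBS without wild-type mouse 2, 6 without DNBS mouse 11, and 4, 4 and 5 in anti-CD40 without Rag1-/- control 2, 3 and 4. The number of all genes called higher moved as well. In DNBS mice it was 736, and 156, 171 and 1365 without wild-type mouse 1, wild-type mouse 2 and DNBS mouse 11. In anti-CD40 mice it was 2029, and 928 without mouse 7 and 1723, 1124 and 1499 without Rag1-/- control 2, 3 and 4. The count of members whose change differed among models ran from 7 to 8, and between models from 1 to 4 (DNBS and IL10), 4 to 8 (DSS and DNBS), 0 to 6 (DSS and IL10), 0 to 3 (TCT and anti-CD40) and 0 to 2 (TRUC and DSS). For differences among or between models, the share of all genes was counted in the main fit only, so these ranges have no such share beside them. Signs changed for Ngp in TRUC (1.96 without Rag2-/- control 2, 0.034 without TRUC mouse 4, range -0.75 to 1.96), for Ly6g in DNBS (-0.029 without mouse 16, range to 0.52) and, between DSS and IL10, for Fpr2 (-0.64 without DSS mouse 8, range to 2.19) and Ngp (-0.37 without DSS mouse 8, range to 3.91). With DSS mouse 8 and IL10 mouse 4 both left out, an alternative chosen after seeing the data as were those between models, 5 members differed between DSS and DNBS, 0 between DSS and IL10 (Csf3r -0.0089, Fpr2 -0.61) and 5 between DNBS and IL10. The cause was not tested.

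DESeq2 gave no adjusted p for Fpr2 and Ngp in DSS, Fpr1 and Ngp in DNBS or Ngp in anti-CD40 mice. Upper-quartile scaling moved the median of all genes by -0.11 in TRUC and -0.17 in IL10 mice, and the share of calls that were higher from 48.8% to 39.4% and from 51.0% to 38.4%, and in DNBS mice from 64.1% to 51.0%. Genes called in DNBS mice, 736 higher and 412 lower, were 411 and 217 with the pair of groups fitted alone and 1108 and 773 with DESeq2, and 156 and 42 without wild-type mouse 1, 171 and 76 without wild-type mouse 2 and 1365 and 977 without DNBS mouse 11. Genes called lower in DSS mice were 3037, and 1928 with the groups fitted alone. Genes called higher were 3299 in DSS mice and 1940 without mouse 8, and 2029 in anti-CD40 mice and 928 without mouse 7. Mice with the same label number did not deviate together (correlations -0.052 to 0.056), so the numbers were not taken as pairs. With a replicate block, 7 members rose in TRUC and 7 in IL10 mice, as without it on the same mice.

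With 3 or 4 mice per group, and Fpr1, Ngp and Cxcr2 at or near 0 counts in the controls, the size of their changes is known as a bound or a wide interval. Mpo and Elane lay near the floor in most mice, so that their levels rest on a few counts.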
